A study of Mus musculus with 12 samples.

Results

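The 44 genes described here copy DNA and divide cells. They were taken by symbol from a fixed list of S phase and mitosis genes, and all 44 have a row among the 15754 genes of the deposited count table. By role they fall into 10 genes of the replication origin and fork, 3 of nucleotide supply, 7 cyclins and cyclin-dependent kinases, 9 mitotic kinases and checkpoint or ubiquitin ligase genes, 9 genes of the centromere, spindle and cytokinesis, 2 genes of chromosome structure and 4 transcription factors.

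The cells were white adipocytes grown in culture from the stromal cells of epididymal fat of wild-type male C57BL/6 mice, 8 weeks old and on chow diet. Near confluence all cultures were turned towards fat cells with insulin (850 nM), IBMX (250 µM), and dexamethasone and rosiglitazone (both 1 µM). At day 4 they received a negative control, a mimic of let-7d-5p or a mimic of let-7e-5p with Lipofectamine RNAiMAX, and total RNA was taken at day 7. Each of these 3 groups has 4 libraries, where the design text states n = 6. Sample identifiers in the labels fall into 2 runs, here called series 1 (replicates 1 and 2 of each group) and series 2 (replicates 3 and 4), and nothing in the labels explains the split. Nor is it stated whether replicates are separate cultures or animals, so a p-value measures only the spread between these libraries.

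Cells that divide pass through S phase, in which the MCM helicase and its loaders open origins and ribonucleotide reductase supplies the DNA building blocks, and then through mitosis, driven by cyclin B with CDK1. E2F factors turn on many S phase genes, whereas FOXM1 and MYBL2 act with the MuvB complex on mitotic genes. Cultured precursors of fat cells divide for a limited time after hormonal induction, in a step called mitotic clonal expansion, and mature fat cells are held not to divide. The let-7 microRNAs are known as brakes on growth in many tissues, and their targets include several cell cycle regulators.

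Both mimics carry the same seed, the bases that pair with a target message, and differ elsewhere. The mature sequences from RefSeq (GRCm38.p6; let-7d at chr13:48536078-48536099, minus strand, and let-7e at chr17:17830366-17830387, plus strand) are given with bases 2 to 8, the seed, in capitals.
let-7d-5p: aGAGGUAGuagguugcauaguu
let-7e-5p: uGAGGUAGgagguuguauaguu
Counted from the 5′ end, they differ at 3 of 22 bases, as A1U, U9G and C16U. Sites for this seed were searched as CTACCTC and TACCTCA, which overlap in the longer form CTACCTCA, in the annotated 3′ UTRs. A site was found in 6 of the 44 genes (13.6%), against 2301 of 13547 tested genes with a 3′ UTR (17.0%). The 6 are Rrm2, Kif11, Birc5, E2f2, Cdk1 and Nusap1. Rrm2 alone among them has the full 8 letters, at bases 130 to 137 of a 3′ UTR of 914 bases. The sites of Rrm2 and, for the shorter forms, of Kif11 and Cdk1 are shown with their upstream bases, the site in capitals.
Rrm2: aggtgtctaaaaagctgtgtagCTACCTCA
Kif11: gctgtctggccaaggctgtttccCTACCTC
Cdk1: ctgtggccacctcagtttaccagTACCTCA
Ccnb1, the gene that changed most, has no such site in its annotated 3′ UTR. The median 3′ UTR of the 44 genes is 861.5 bases long, against 1187 among all tested genes. A match of letters is a description of the sequence and does not show pairing in these cells.

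Promoters were available in the RefSeq table for 37 of the 44 genes and were searched on both strands over the 250 bases before the start. The CCAAT box, read by NF-Y, was present in 29 of the 37 (78.4%), against 36.2% of 11240 promoters of the same length. TTTGAA, the core of the CHR element bound by the MuvB complex, was present in 9 (24.3%, against 10.7%). An E2F motif, TTTCCCGC or TTTGGCGC, was present in 5 (13.5%, against 2.48%), and these 5 were Cdc6, Cdk2, Mcm5, Mcm6 and Mcm7. The promoters of 4 genes that the results turn on are shown with these motifs in capitals, as read on either strand. They are Ccnb1 (chr13:100786487-100786736, minus strand), Top2a (chr11:99024190-99024439, minus strand), Mcm5 (chr8:75109259-75109508, plus strand) and Rrm2 (chr12:24708004-24708253, plus strand), all on GRCm38.p6.
Ccnb1: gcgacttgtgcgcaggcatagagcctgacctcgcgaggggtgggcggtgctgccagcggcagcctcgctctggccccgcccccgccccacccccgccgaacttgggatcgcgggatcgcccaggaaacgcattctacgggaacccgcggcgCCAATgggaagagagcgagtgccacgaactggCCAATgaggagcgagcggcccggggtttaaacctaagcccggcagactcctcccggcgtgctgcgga
Top2a: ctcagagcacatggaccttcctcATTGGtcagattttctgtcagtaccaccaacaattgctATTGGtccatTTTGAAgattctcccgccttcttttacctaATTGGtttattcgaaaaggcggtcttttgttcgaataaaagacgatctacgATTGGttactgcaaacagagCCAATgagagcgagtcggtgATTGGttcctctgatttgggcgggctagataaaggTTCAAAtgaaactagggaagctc
Mcm5: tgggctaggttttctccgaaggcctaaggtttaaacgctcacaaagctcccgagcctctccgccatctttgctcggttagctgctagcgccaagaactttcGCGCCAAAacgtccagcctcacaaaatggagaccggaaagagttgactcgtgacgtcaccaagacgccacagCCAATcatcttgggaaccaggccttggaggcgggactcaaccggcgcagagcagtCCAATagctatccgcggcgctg
Rrm2: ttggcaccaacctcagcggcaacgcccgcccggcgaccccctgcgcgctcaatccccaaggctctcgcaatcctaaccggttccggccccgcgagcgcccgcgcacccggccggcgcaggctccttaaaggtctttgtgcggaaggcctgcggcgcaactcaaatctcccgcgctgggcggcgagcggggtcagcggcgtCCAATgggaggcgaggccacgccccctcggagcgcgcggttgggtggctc
Ccnb1 shows 2 CCAAT boxes, Top2a 6 CCAAT boxes and 2 CHR cores, Mcm5 1 E2F motif (TTTGGCGC, here as its complement) and 2 CCAAT boxes, and Rrm2 1 CCAAT box.

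The libraries hold 15071299 to 33396316 counts. Levels are given as CPM, the counts of a gene scaled to a common library total, and at this depth the lowest count of any of the 44 genes in any library was 22. The first principal component separated series 1 from series 2 and held 79.2% of the variance. All 12 adipocyte markers, Adipoq and Plin1 among them, were present, at a summed 25000 to 27400 CPM in series 1 and 5370 to 7530 in series 2, while 11 markers of preadipocytes and fibroblasts summed to 17000 to 20900 and 7860 to 8780. Most of that sum is Col1a1, and by gene 7 of the 11 were higher in series 2, Dcn and Ly6a among them, and 4 lower (median 1.35 on the log2 scale). The known let-7 targets Hmga2 and Dicer1 checked the mimics. Hmga2, a chromatin protein of growing cells, fell by 0.84 on the log2 scale with let-7d (edgeR adjusted p = 4.73e-05) and by 0.59 with let-7e (edgeR adjusted p = 0.00105). Dicer1, the nuclease that makes microRNAs, fell by 0.52 (edgeR adjusted p = 4.84e-05) and by 0.45 (edgeR adjusted p = 0.000213).

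Control replicate 2, in series 1, stood apart in ways that touch several of the 44 genes. Cenpf, a large kinetochore protein, was at 55.2 CPM in control 1 and 15.3 in control 2. Cenpe, the kinetochore motor, was at 62.1 and 20.9 CPM, and Mki67, the coat protein of mitotic chromosomes, at 177 and 74.3. The other 4 libraries of series 1 held Cenpf between 50.6 and 70.2 CPM, Cenpe between 48.4 and 65.97 and Mki67 between 164 and 189, close to control 1. Among 10929 genes with a mean of at least 5 CPM, 43 were over 2-fold lower in control 2 than in control 1 and 0 were over 2-fold higher, and these 3 were among them. The other 5 pairs of replicates had 0 of the 44 genes past 2-fold in either direction. Of all genes, 0 to 48 per direction were past it in those pairs, with 48 lower and 2 higher in let-7d 4 against let-7d 3. The count over all genes thus does not set control 2 apart. The messages of Cenpf, Cenpe and Mki67 are long (7910 to 11130 bases) and rich in adenine (34.2% to 36.5% of the longest transcript). Genes with at least 34% adenine, 184 of them, had a median log2 difference of -0.53 between control 2 and control 1, against 0.04 in the 6222 genes under 25%. Between control 4 and control 3 the same 184 genes differed by -0.11. Length by itself did not go with it, since the 759 genes over 8 kb had a median of 0.03. The 13 genes outside the 44 with at least 34% adenine and 6 kb had a median of -1.11, and 9 were over 2-fold lower. Between control 4 and control 3 their median was 0.02. The 43 also include shorter messages, such as those of Cxcl10 (2230 bases, -3.01) and Ifit1 (2656 bases, -1.15). Whether adenine share goes with all of the 43 was not tested. The main results with a series 1 control are therefore also given without control 2.

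**Figure D1:**
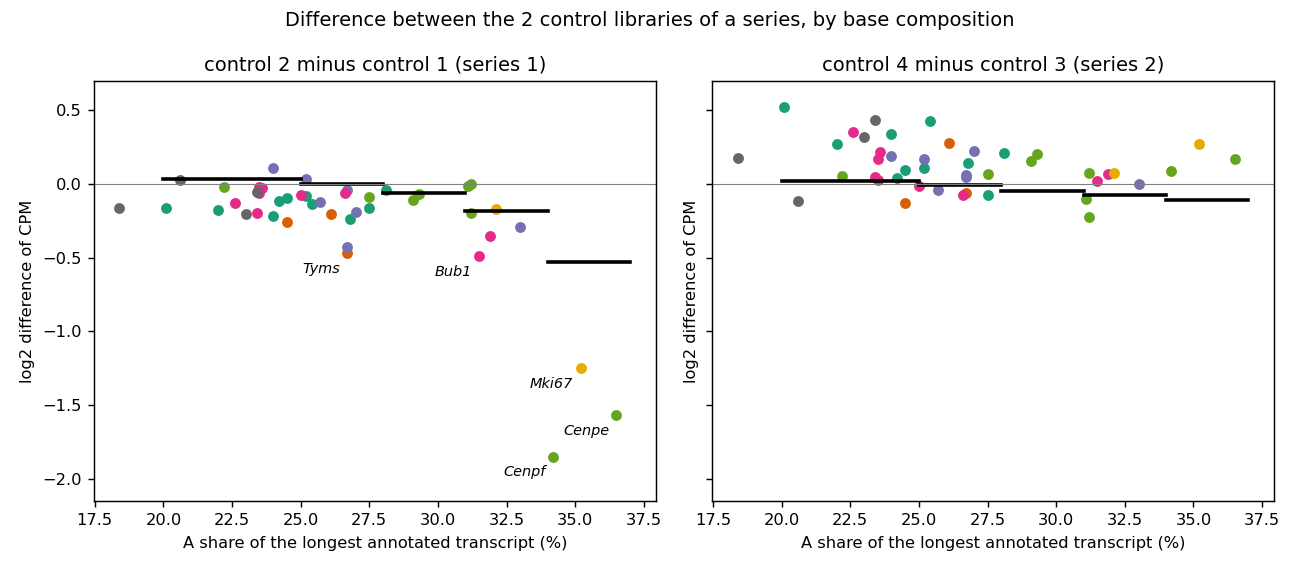
Log2 difference in level between the 2 control libraries of each series (control 2 minus control 1, control 4 minus control 3) against the adenine share of the longest transcript; dots are the 44 genes and black lines the medians of all genes in bins. Cenpf (-1.85), Cenpe (-1.57) and Mki67 (-1.25) lie far below 0 between the controls of series 1, where the median of all genes at 34% adenine or more is -0.53, and not between those of series 2.

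Over all 12 libraries, with a term for series, let-7d raised 2 of the 44 genes and lowered 4 (edgeR adjusted p under 0.05). Of all genes, 6.41% rose and 9.81% fell in this comparison. The 2 that rose, Ccnb1 and Top2a, act in mitosis, and the 4 that fell, Mcm2, Mcm5, Rrm1 and Rrm2, act in DNA synthesis. With let-7e 1 gene rose, Ccnb1, and 2 fell, Rrm1 and Ccna2, where 3.81% of all genes rose and 5.69% fell. The median log2 change of the 44 was 0.02 with let-7d and -0.02 with let-7e, each near the median of all genes (-0.002 for both). These shares are near the background, so the count of changed genes does not set the 44 apart. Without control 2 the let-7d count was also 6, with Mcm6 (-0.19, edgeR adjusted p = 0.0415) in place of Top2a, and the let-7e count was 3, with Rrm2 in place of Ccna2.

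**Figure D2:**
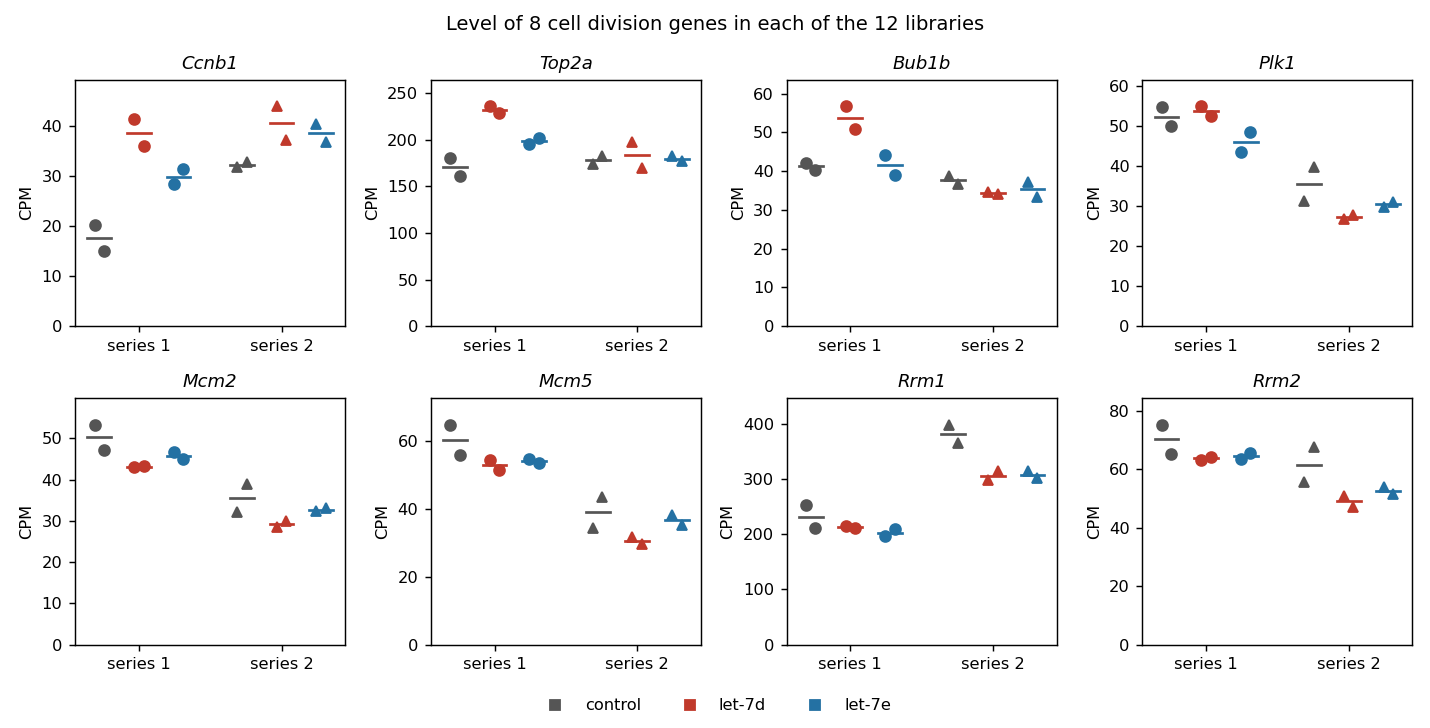
Level in CPM in each of the 12 libraries for 8 genes, by group, with circles for series 1, triangles for series 2 and bars for the mean of 2 libraries. Ccnb1 is higher in every let-7d library (36.1 to 44.1 CPM) than in any control (15.1 to 32.9), while the levels of Rrm1 do not overlap between series (197 to 253 CPM in series 1, 298 to 399.6 in series 2).

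Cyclins and cyclin-dependent kinases drive the transitions between phases. Ccnb1 (chr13:100778650-100786570, GRCm38, minus strand) encodes cyclin B1, the partner of CDK1 at entry into mitosis. In series 1 it stood at 20.3 and 15.1 CPM in the controls, 41.4 and 36.1 with let-7d and 28.5 and 31.4 with let-7e. In series 2 the controls held 31.8 and 32.9 CPM, the let-7d libraries 44.1 and 37.3 and the let-7e libraries 40.5 and 36.9. All 4 let-7d libraries thus lay above all 4 controls, and within each series every mimic library lay above both controls. Over both series the log2 change was 0.68 with let-7d (SE 0.13, edgeR adjusted p = 0.0018) and 0.46 with let-7e (SE 0.13, edgeR adjusted p = 0.031). Without control 2 these were 0.56 (edgeR adjusted p = 0.00183) and 0.34 (edgeR adjusted p = 0.0477). The call with let-7d held in each of the 8 fits that left out 1 library (0.56 to 0.79), and the call with let-7e was lost in 4 of them, without control 1 or let-7e 1, 2 or 3. The spliced Ccnb1 message has 3 near copies in the genome, processed pseudogenes of which Ccnb1-ps matches it at 99.2% over 1287 bases. None of the 3 is a row of the count table, so how reads shared with them were counted was not tested and the level of Ccnb1 is uncertain to that extent.

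Within series 1, Ccnb1 rose by 1.10 on the log2 scale with let-7d (SE 0.13, edgeR adjusted p = 0.00013) and by 0.74 with let-7e (SE 0.13, edgeR adjusted p = 0.0032). Without control 2 these rises were 0.91 (edgeR adjusted p = 0.000993) and 0.56 (edgeR adjusted p = 0.0219). Within series 2 neither change passed, at 0.33 (edgeR adjusted p = 0.089) and 0.26 (edgeR adjusted p = 0.284). The controls themselves differed between the series, with 15.1 and 20.3 CPM in series 1 and 31.8 and 32.9 in series 2, whereas the let-7d libraries spanned 36.1 to 44.1 in both. Ccna2, cyclin A2, which acts in S phase and at mitotic entry, fell with let-7e, from 66.1 and 64.3 CPM in the series 1 controls to 54.2 and 62.9, and from 54.5 and 56.9 to 49.7 and 47.4 in series 2. Every let-7e library lay below both controls of its series. The log2 change was -0.18 (SE 0.05, edgeR adjusted p = 0.040), a call lost in 7 of the 8 fits that left out 1 library. The exons of Ccna2 overlap those of Exosc9 on the other strand over 431 bases, which makes its value uncertain where counting ignored strand. The other 5 genes of this group, Ccne1, Ccne2, Ccnb2, Cdk1 and Cdk2, did not pass in either comparison.

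Of the 10 replication genes let-7d lowered 2, Mcm2 and Mcm5, and by edgeR let-7e changed 0. With let-7e 0 of the 10 had an unadjusted edgeR p under 0.05, against 3610 of all 15754 genes. Mcm2 and Mcm5 both encode subunits of the MCM helicase that unwinds DNA at the fork. Mcm2 (chr6:88883474-88898780, minus strand) stood at 53.3 and 47.2 CPM in the series 1 controls, 43.1 and 43.2 with let-7d and 46.7 and 44.9 with let-7e. In series 2 the values were 32.2 and 38.9 CPM in controls, 28.6 and 29.97 with let-7d and 32.3 and 33.1 with let-7e. The let-7d libraries lay below both controls in each series. Their log2 change was -0.25 (SE 0.06, edgeR adjusted p = 0.011), a call that held in all 8 fits without 1 library. With let-7e it was -0.13 (edgeR adjusted p = 0.219).

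Mcm5 (chr8:75109569-75128439, plus strand) was at 64.97 and 55.9 CPM in the series 1 controls, 54.5 and 51.5 with let-7d and 54.7 and 53.7 with let-7e. Series 2 held 34.5 and 43.7 CPM in controls, 31.8 and 29.6 with let-7d and 38.3 and 35.3 with let-7e. Here too the let-7d libraries lay below both controls of their series, and with let-7e the groups overlapped in series 2. The log2 change with let-7d was -0.27 (SE 0.08, edgeR adjusted p = 0.024), and this call was lost without control 1, control 4, let-7d 3 or let-7d 4. Of the 10 replication genes, 9 had a value below 0 with let-7d and 2 passed, with a median of -0.12. All 4 let-7d libraries lay below their series' control mean for Mcm2, Mcm3, Mcm5, Mcm6 and Cdt1, the origin licensing factor. Pcna, the sliding clamp, was the member of this group with the highest level per kilobase of exon (38.7 CPM per kb, the highest of the 44) and did not pass.

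Ribonucleotide reductase makes deoxynucleotides, and both of its subunits here fell with let-7d. Rrm1 (chr7:102441695-102469771, plus strand), the large subunit, stood at 253 and 212 CPM in the series 1 controls, 216 and 211 with let-7d and 197 and 209.7 with let-7e. Its series 2 values were 399.6 and 365 CPM in controls, 298 and 316 with let-7d and 315 and 303 with let-7e. In series 2 every mimic library lay below both controls, and in series 1 let-7d 1 lay between them. The log2 change was -0.22 with let-7d (SE 0.06, edgeR adjusted p = 0.021) and -0.25 with let-7e (SE 0.06, edgeR adjusted p = 0.016). The call with let-7d was lost without control 1, control 3 or let-7d 3, and that with let-7e without let-7e 1 or let-7e 4.

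Rrm2 (chr12:24708241-24714146, plus strand), the small subunit and the bearer of the 8-letter site shown above, was at 75.2 and 65.2 CPM in the series 1 controls, 63.1 and 64.2 with let-7d and 63.4 and 65.6 with let-7e. Series 2 had 55.6 and 67.5 CPM in controls, 50.8 and 47.0 with let-7d and 53.7 and 51.6 with let-7e. The let-7d libraries lay below both controls in each series. Its log2 change was -0.24 with let-7d (SE 0.07, edgeR adjusted p = 0.021), lost without control 1, control 4 or let-7d 4, and the change with let-7e was -0.18 (edgeR adjusted p = 0.106), or -0.22 without control 2 (edgeR adjusted p = 0.0403). A pseudogene, Gm48455, is a near copy of Rrm2. Of the 6 genes with a site, Rrm2 was the one called with let-7d, and 4 of the 6 had values above 0, with a median of 0.06 against 0.02 in the 38 without a site. With let-7e the medians were -0.06 and -0.01. Over replication and nucleotide supply together, 12 of 13 genes had a value below 0 with let-7d (median -0.13) and 9 of 13 with let-7e (median -0.04), where 49.5% of all genes lay above 0 in each comparison.

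In mitosis, Top2a (chr11:98992943-99024189, minus strand), the topoisomerase that untangles sister chromatids, was the other gene raised by let-7d. Series 1 held 181 and 161 CPM in controls, 236 and 229 with let-7d and 195 and 202 with let-7e. In series 2 the values were 174 and 183 CPM in controls, 198 and 170.1 with let-7d and 183 and 177 with let-7e. The groups were apart in series 1 and overlapped in series 2. Over both series the log2 change was 0.24 with let-7d (SE 0.07, edgeR adjusted p = 0.035) and 0.11 with let-7e (edgeR adjusted p = 0.408). The let-7d call was lost without control 1, control 2, let-7d 1, let-7d 2 or let-7d 3, and with an offset for adenine content (0.16, edgeR adjusted p = 0.068), an alternative added after the data had been seen. In each role the gene with the smallest p that still did not pass is given as a value. Plk1, the polo kinase of mitosis, was at -0.17 with let-7d (edgeR adjusted p = 0.23) and -0.21 with let-7e (edgeR adjusted p = 0.176). Cenpa, the histone of centromeres, was at 0.16 with let-7d (edgeR adjusted p = 0.104), from 31.8, 31.3, 33.8 and 35.2 CPM in controls to 39.9, 34.1, 39.7 and 34.3. Tpx2, a spindle assembly factor, was at -0.10 with let-7e (edgeR adjusted p = 0.392). E2f2, an activator of S phase genes and the lowest of the 44 per kilobase (0.565 CPM per kb), was at 0.21 with let-7d (edgeR adjusted p = 0.417) and 0.36 with let-7e (edgeR adjusted p = 0.161). Its levels were 3.96 and 4.03 CPM in the series 1 controls and 0.977 and 0.900 in those of series 2, so counting error is largest there.

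Taken series by series, the let-7d response of the mitotic genes lay above 0 in series 1 and mostly below 0 in series 2. Let-7d raised 5 of the 44 genes in series 1, all of them mitotic, namely Ccnb1, Top2a, Bub1b, Ube2c and Kif20a, where 4.59% of all genes rose and 6.28% fell. Without control 2 edgeR called 2 of them, Ccnb1 and Top2a. In series 2 let-7d lowered 3, Rrm1, Rrm2 and Plk1, where 3.29% of all genes rose and 5.26% fell. Grouped by role, 24 of the 44 are mitotic (Ccna2, Ccnb1, Ccnb2, Cdk1 and the genes of the kinase, spindle and chromosome groups). In series 1, 23 of these 24 had a value above 0, with a median of 0.25 on the log2 scale against 0.00 in all genes. In series 2, 17 of the 24 lay below 0, with a median of -0.08 against -0.01. The libraries behind these medians matter, since without control 2 the series 1 median was 0.12 (20 of 24 above 0), and without let-7d 4 the series 2 median was 0.01 (14 of 24 above 0). Without let-7d 3 it was -0.14, with 23 of 24 below 0.

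**Figure D3:**
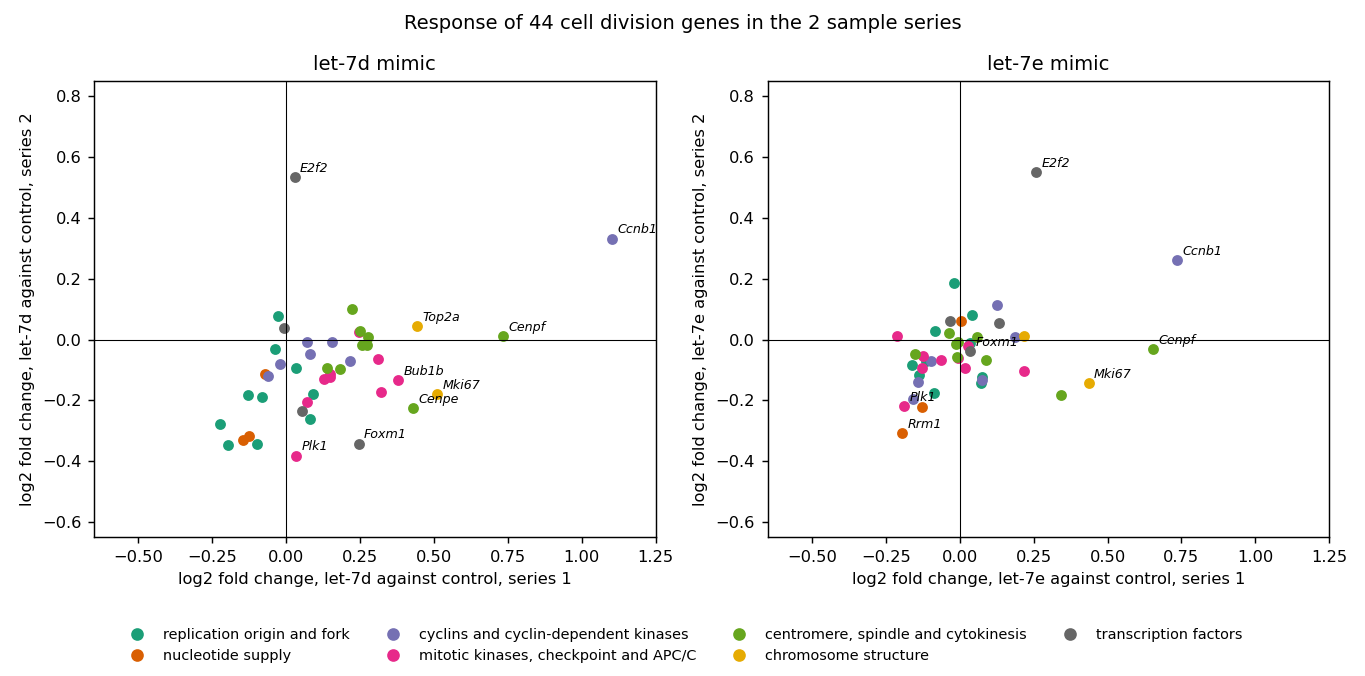
Log2 change against control in series 1 (horizontal axis) and series 2 (vertical axis) for each of the 44 genes, let-7d on the left and let-7e on the right, coloured by role. With let-7d most mitotic genes lie right of 0 and below 0 (medians 0.25 and -0.08), and Ccnb1 lies above 0 on both axes (1.10 and 0.33).

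Bub1b (chr2:118598211-118641591, plus strand), a kinase-like protein of the spindle checkpoint, was at 42.1 and 40.3 CPM in the series 1 controls, 56.8 and 50.9 with let-7d and 44.3 and 39.1 with let-7e. In series 2 it held 38.7 and 36.7 CPM in controls, 34.6 and 34.1 with let-7d and 37.2 and 33.3 with let-7e. The let-7d libraries therefore lay above both controls in series 1 and below both in series 2. The log2 change in series 1 was 0.38 (SE 0.09, edgeR adjusted p = 0.011) and was just short of the threshold without control 2 (0.34, edgeR adjusted p = 0.0517), and it was also lost without let-7d 1. Top2a rose by 0.44 in series 1 (SE 0.08, edgeR adjusted p = 0.0028), and this call held in the 4 fits that left out a control or let-7d library of that series.

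Ube2c (chr2:164769898-164778822, plus strand), the ubiquitin carrier of the anaphase-promoting complex, was at 43.6 and 38.0 CPM in the series 1 controls and 52.3 and 49.5 with let-7d. In series 2 it was at 44.2 and 45.7 CPM in controls and 45.3 and 40.7 with let-7d, with the groups overlapping. The series 1 change of 0.31 (SE 0.09, edgeR adjusted p = 0.034) became 0.21 without control 2 (edgeR adjusted p = 0.201). Kif20a, a kinesin of the central spindle, stood at 60.2 and 55.8 CPM in the series 1 controls and 74.4 and 66.6 with let-7d. Its series 2 values were 63.9 and 71.2 CPM in controls and 70.6 and 65.1 with let-7d, between the controls. The series 1 change was 0.28 (SE 0.08, edgeR adjusted p = 0.043) and 0.21 without control 2 (edgeR adjusted p = 0.199). The Kif20a call was lost in each of the 4 fits without 1 library of that comparison (edgeR adjusted p from 0.0593 to 0.296) and by DESeq2, limma-voom, the scaling of DESeq2 in edgeR and the adenine offset. That of Ube2c was lost in 3 of 4 such fits and by DESeq2. The exons of Kif20a overlap those of Cdc23 on the other strand, which leaves its level uncertain.

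Plk1 (chr7:122159439-122169873, plus strand) was called with let-7d in series 2 and not in series 1. It was at 54.7 and 50.01 CPM in the series 1 controls, 55.1 and 52.5 with let-7d and 43.5 and 48.7 with let-7e. In series 2 it held 31.2 and 39.9 CPM in controls, 26.8 and 27.7 with let-7d and 29.9 and 31.1 with let-7e. Let-7d libraries overlapped the controls in series 1 and lay below both in series 2, where the log2 change was -0.38 (SE 0.10, edgeR adjusted p = 0.031). Rrm1 and Rrm2 fell in series 2 by 0.32 (SE 0.08, edgeR adjusted p = 0.026) and by 0.33 (SE 0.09, edgeR adjusted p = 0.035). Each of these 3 calls rests on few libraries, since that of Rrm1 was lost without control 3 or let-7d 3, and those of Plk1 and Rrm2 without control 4, let-7d 3 or let-7d 4. With the replicate number as a block, let-7d lowered 5 genes in series 2, Mcm2 and Mcm5 in addition.

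By role, all 9 genes of the centromere, spindle and cytokinesis had values above 0 with let-7d in series 1 (median 0.26, or 0.17 with 8 of 9 above 0 without control 2) and 4 of 9 in series 2 (median -0.02). The 9 mitotic kinase, checkpoint and ubiquitin ligase genes were all above 0 in series 1 (median 0.15, or 0.11 with 8 of 9 above 0 without control 2), and 8 of the 9 were below 0 in series 2 (median -0.13). Of the genes of replication and nucleotide supply, 10 of 13 lay below 0 in series 1 (median -0.08, or -0.18 without control 2) and 12 of 13 in series 2 (median -0.19). The 4 transcription factors had medians of 0.04 (-0.01 without control 2) and -0.10, and among them Foxm1, the activator of mitotic genes, stood at 43.7 and 42.1 CPM in the series 1 controls and 53.9 and 48.1 with let-7d, but at 18.01 and 24.3 in the series 2 controls and 15.5 and 17.9 with let-7d. Foxm1 thus lay above both controls in series 1 and below both in series 2, there by 17.9 against 18.01 CPM at the nearest. It was called in neither series by edgeR. Of all genes, 27.0% lay above both controls in series 1 and 27.6% below both in series 2.

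The difference between the let-7d responses was tested directly, as an interaction of mimic and series. By edgeR, 0 of the 44 genes passed, where 0.241% of all genes did, and 14 had an unadjusted p under 0.05, against 13.6% of all genes. DESeq2 called 1, Ccnb1, and limma-voom called 0. With the replicate number as a block edgeR called 2, Ccnb1 (edgeR adjusted p = 0.0375) and Bub1b. The value of series 2 minus series 1 was below 0 in 40 of the 44 genes and in 24 of 24 mitotic genes, where 47.1% of all genes lay above 0. The median was -0.25 over the 44 and -0.28 over the 24, against -0.02 in all genes. Without control 2 the median of the 24 was -0.21, with 23 below 0, and over the single-library omissions it ranged from -0.38 to -0.21. With the adenine offset it was -0.25 with 24 below 0, and over the 21 that remain without Cenpe, Cenpf and Mki67 it was -0.27. Over all 44 genes 35 lay below 0 without control 2. The direction was thus shared by most of the genes, while single genes did not reach the threshold of edgeR without a block. The genes come from the same libraries and can move together within one. The median log2 deviation of the 44 from the series mean was 0.04 and -0.08 in controls 1 and 2, and 0.11 and 0.05 in let-7d 1 and 2. In series 2 it was -0.01 and 0.09 in controls 3 and 4, and 0.01 and -0.11 in let-7d 3 and 4. Here and elsewhere, genes on one side of 0 are therefore not independent results.

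Ccnb1 had the largest difference of response, -0.77 (SE 0.17, edgeR adjusted p = 0.069), or -0.56 without control 2 (edgeR adjusted p = 0.127). Bub1b was at -0.51 (SE 0.12, edgeR adjusted p = 0.080). The values for Cenpf (-0.72, SE 0.45, edgeR adjusted p = 0.518) and Mki67 (-0.69, SE 0.34, edgeR adjusted p = 0.392) rest on control 2. Without that library they were -0.10 and -0.18. Cenpf was at 50.6 and 70.2 CPM with let-7d in series 1 and at 47.1 and 39.9 in series 2, where the controls held 41.9 and 44.5. Mki67 was at 172 and 189 CPM with let-7d in series 1 and 98.2 and 96.4 in series 2, with 99.99 and 121 in the controls of series 2.

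**Figure D4:**
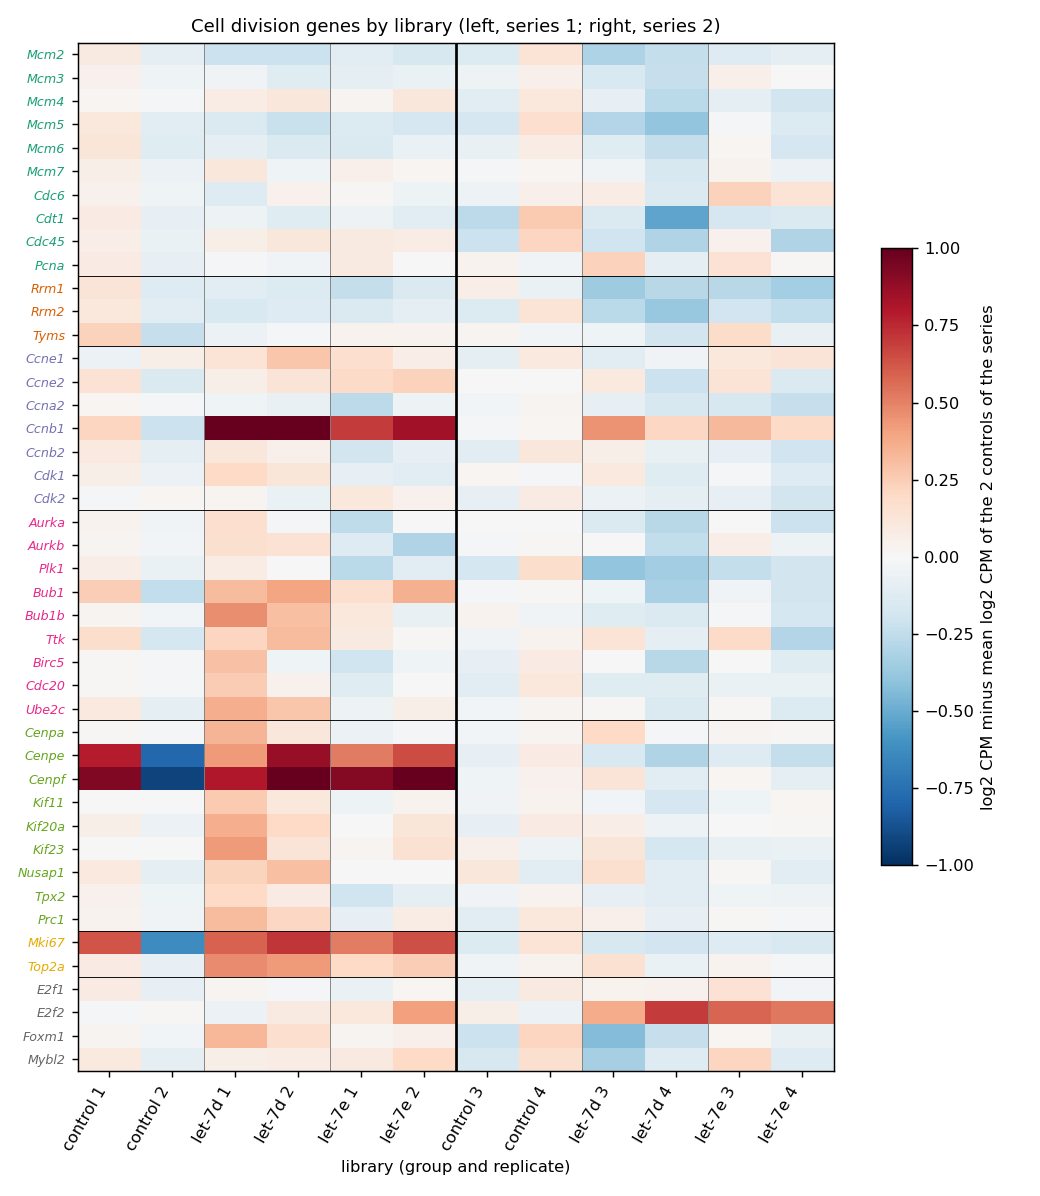
Log2 CPM of each of the 44 genes in each library minus the mean of the 2 controls of its series, rows ordered by role, colours saturating at 1 above and below 0. The let-7d libraries of series 1 are above 0 over most mitotic rows and those of series 2 mostly below 0 (medians of the 24 mitotic changes 0.25 and -0.08), and Cenpe, Cenpf and Mki67 split the controls of series 1.

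Fewer genes were called with let-7e within each series, though the responses to both mimics were not told apart by the test of their difference. In series 1 let-7e raised Ccnb1 alone, where 3.10% of all genes rose and 4.02% fell. Without control 2, Rrm1 was also called, at -0.31 (edgeR adjusted p = 0.0365) against -0.20 with it (edgeR adjusted p = 0.18). In series 2, 0 of the 44 passed by edgeR, where 2.48% of all genes did, and 6 had an unadjusted p under 0.05, against 15.1% of all genes. DESeq2 called 1 there, Rrm1, and limma-voom called 0. Rrm1 was at -0.31 in series 2 (edgeR adjusted p = 0.061). The median of the 24 mitotic genes was -0.01 in series 1, or -0.08 without control 2, and -0.06 in series 2, with 19 of 24 below 0 in series 2. For the difference of the let-7e responses edgeR called 0 of the 44, where 0.00635% of all genes passed, and 1 had an unadjusted p under 0.05, against 8.87% of all genes. DESeq2 and limma-voom called 0. The largest values, Cenpf -0.69 (SE 0.45), Mki67 -0.58 (SE 0.34) and Cenpe -0.52 (SE 0.40), moved to -0.10, -0.11 and 0.01 without control 2.

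The mimics were also set against each other, a comparison that uses no control. By edgeR 0 of the 44 genes passed, where 0.152% of all genes did, and 4 had an unadjusted p under 0.05, against 9.31% of all genes. These 4 were Ccnb2, Cdk1, Cenpa and Nusap1, each higher with let-7d by 0.15 to 0.17 (edgeR adjusted p from 0.426 to 0.523). DESeq2 and limma-voom called 0. All 24 mitotic genes had a value above 0 for let-7d against let-7e, with a median of 0.12, where 48.3% of all genes lay above 0. Within series 1, 24 of 24 lay above 0 with a median of 0.22. Within series 2, 10 of 24 did, with a median of -0.01. Of the 13 replication and nucleotide genes, 12 lay below 0, with a median of -0.07. Ccnb1 was higher with let-7d by 0.22 (SE 0.12, edgeR adjusted p = 0.615).

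Libraries were also counted by their side of the controls. All 4 let-7d libraries lay above the control mean of their series for 1 gene, Ccnb1, where 19.6% of all genes did so. They lay below it for 9, where 22.0% of all genes did so, and these were Mcm2, Mcm3, Mcm5, Mcm6, Cdt1, Rrm1, Rrm2, Tyms and Ccna2. With let-7e the counts were 4 above (18.3% of all genes) and 11 below (19.2%), and the 11 were Mcm2, Mcm5, Cdt1, Rrm1, Rrm2, Ccna2, Ccnb2, Cdk1, Plk1, Cdc20 and Tpx2. In series 1, both let-7d libraries lay above both controls for 19 genes (27.0% of all genes) and below both for 4 (27.6%). In series 2 the counts were 2 above (22.8%) and 18 below (27.6%).

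More of the genes differed in level between the series than with either mimic. Against series 1, series 2 was higher for 8 of the 44 genes and lower for 22 (edgeR adjusted p under 0.05), where 41.7% of all genes were higher and 40.0% lower. Of the 4 transcription factors, 3 were lower. E2f2 ranged from 3.85 to 5.31 CPM in series 1 (median 4.15) and from 0.900 to 1.52 in series 2 (median 1.28), a log2 difference of -1.80 (edgeR adjusted p = 6.55e-10). Foxm1 ranged from 42.1 to 53.9 CPM (median 44) and from 15.5 to 24.3 (median 19.0), a difference of -1.24 (edgeR adjusted p = 1.5e-09). Mybl2, the MuvB partner of S phase, fell from a median of 12.6 to one of 6.18 CPM, by 0.94 (edgeR adjusted p = 2.56e-08). For each of these 3 genes the series did not overlap in any library.

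Genes of DNA synthesis differed in both directions, within roles as well. Cdt1 had medians of 15.5 and 6.91 CPM (log2 difference -1.18, edgeR adjusted p = 2.23e-09), and Mcm3 53.2 and 31.3 (-0.80, edgeR adjusted p = 5.13e-11). Mcm2 and Mcm5 were lower by -0.52 (edgeR adjusted p = 4.64e-08) and -0.66 (edgeR adjusted p = 3.34e-08). Pcna went the other way, with medians of 74.4 and 108 CPM (0.56, edgeR adjusted p = 4.63e-08), as did Rrm1 with 212 and 315 (0.62, edgeR adjusted p = 5.58e-09) and Tyms, thymidylate synthase, with 30.4 and 48.8 (0.70, edgeR adjusted p = 3.64e-08). Rrm2 was lower in series 2, so both subunits of the reductase differed in opposite directions. Mybl2, Pcna and Tyms have pseudogenes as near copies, Gm3320 (99.7% over 742 bases), Pcna-ps2 (99.2% over 781) and Tyms-ps (95.6% over 677). Of these Pcna-ps2 is a row of the count table, at 0.206 to 1.06 CPM. How shared reads were counted was not tested, so the levels of these genes are uncertain to that extent.

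Among mitotic genes, Cdk1 was higher in series 2, with medians of 55.0 and 78.1 CPM (0.47, edgeR adjusted p = 1.31e-07), together with Ccnb1 (0.41, edgeR adjusted p = 0.0014), Ccnb2 (0.24, edgeR adjusted p = 0.00063) and Nusap1, a spindle protein (0.23, edgeR adjusted p = 0.0031). Aurkb, the kinase of the chromosomal passenger complex, was lower, with medians of 25.6 and 12 CPM (-1.10, edgeR adjusted p = 5.11e-10). Ccne2, a G1 cyclin, was higher by 0.23 (edgeR adjusted p = 0.0081). Its exons overlap those of Ints8 on the other strand over 474 bases, which makes its value uncertain where counting ignored strand. Ints8 itself was higher in series 2 by 0.63 (edgeR adjusted p = 5.87e-10). The directions for Nusap1 and Ccne2 turn with the adenine offset, to -0.18 and -0.29. Marker levels moved with the series as well. The 12 adipocyte markers were lower in series 2 with a median of -2.31, 13 of 14 macrophage markers were lower (summed 285 to 426 CPM in series 1, 28.8 to 170.4 in series 2), and 8 smooth muscle and pericyte markers summed to 2840 to 4420 CPM in series 1 and 5180 to 6830 in series 2. Acta2 carries the last of these sums, and by gene 5 of the 8 were higher in series 2 and 3 lower, Cspg4 and Mcam among the lower. The part of these cell types in the difference of the cell division genes was not tested, and in bulk RNA fewer dividing cells and less RNA per dividing cell cannot be told apart.

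**Figure D5:**
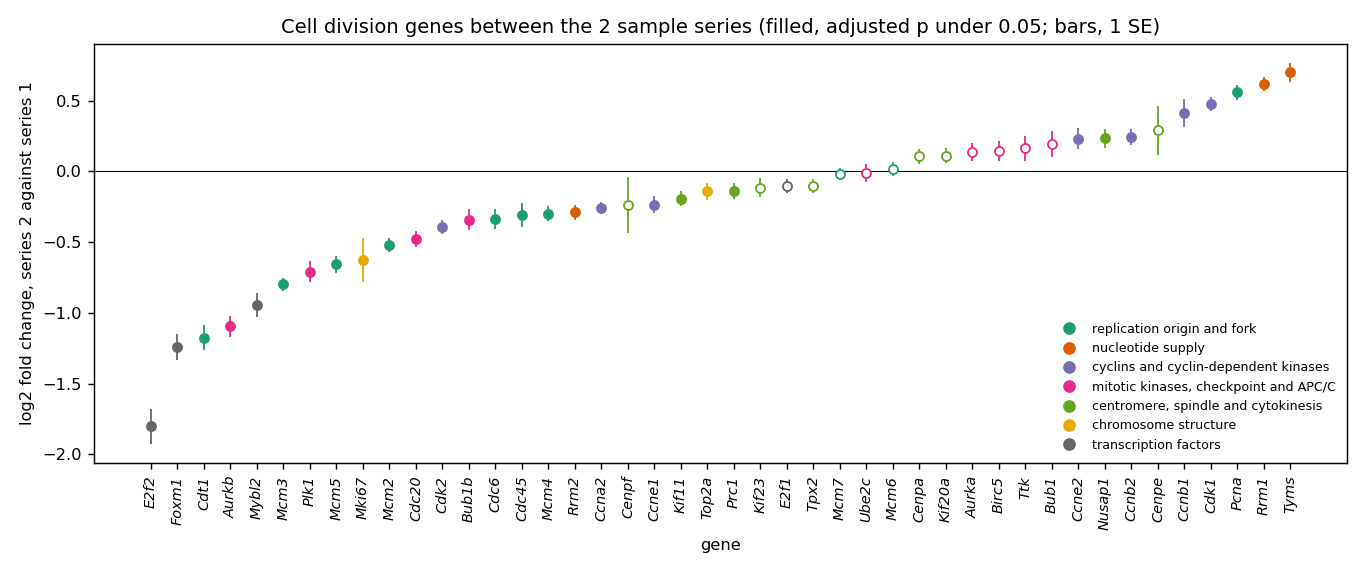
Log2 difference of series 2 against series 1 for the 44 genes, with the standard error, over all 12 libraries with a term for group; filled points passed at an edgeR adjusted p under 0.05. E2f2 (-1.80), Foxm1 (-1.24), Cdt1 (-1.18) and Aurkb (-1.10) are at the low end, and Tyms (0.70), Rrm1 (0.62) and Pcna (0.56) at the high end.

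Cell type markers also moved with the mimics. In series 2 the 14 macrophage markers summed to 44.3 and 28.8 CPM in the controls, 170.4 and 70.8 with let-7d and 55.4 and 85.7 with let-7e, and Itgam was at 0 in at least 1 library. With let-7d edgeR called 8 of the 14 higher in series 2, where 3.29% of all genes rose. In series 1 it called 0 of them higher and 2 lower, where 6.28% of all genes fell. Of the 12 adipocyte markers, let-7d lowered 5 in series 2 (median -0.28), where 5.26% of all genes fell, and 0 in series 1 (median -0.02). Of the 9 endothelial markers it raised 2 in series 2, and of the 11 preadipocyte and fibroblast markers it raised 4 and lowered 2 over both series. Smooth muscle and pericyte markers summed to 4419 and 3395 CPM in the series 1 controls against 2842 to 3198 with the mimics, and to 6525 and 6834 in the series 2 controls against 5178 to 5642. Their part in the changes of the 44 genes was not tested. Of 8 lymphocyte markers 1 is in the table, and the endothelial markers summed to 194 to 313 CPM over all libraries.

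A further 120 genes of the cell cycle, from a list of 122 written from general knowledge, were measured in the same fit. Let-7d raised 4 (3.33%, against 6.41% of all genes) and lowered 9 (7.5%, against 9.81%) of them. Let-7e raised 2 (1.67%, against 3.81%) and lowered 6 (5%, against 5.69%). E2f6, an E2F repressor with a let-7 site in its 3′ UTR, was at 48.5 and 46.5 CPM in the series 1 controls, 28.7 and 27.6 with let-7d and 29.7 and 31.5 with let-7e. In series 2 it held 57.0 CPM in both controls, 40.9 and 42.1 with let-7d and 37.9 and 44.5 with let-7e. Every mimic library lay below both controls. E2f6 fell by 0.60 with let-7d (edgeR adjusted p = 3.15e-05) and by 0.55 with let-7e (edgeR adjusted p = 0.0001). Ccnd2, cyclin D2, which also has sites, fell by 0.40 with let-7d (edgeR adjusted p = 0.000226) and by 0.20 with let-7e (edgeR adjusted p = 0.035). Cdkn1a, the p21 inhibitor of cyclin-dependent kinases, has no site and fell by 0.34 (edgeR adjusted p = 0.0012) and by 0.32 (edgeR adjusted p = 0.00285). Of the 120 genes 21 have a site, where 2301 of 13547 tested genes do (17.0%). Whether sites go with the changes of the 120 was not tested.

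Among 37 further replication factors let-7d lowered 5 (13.5%, against 9.81% of all genes) and raised 0 by edgeR, with 25 below 0 and a median of -0.07, and without control 2 it lowered 3. Lig1, which joins Okazaki fragments, fell by 0.28 with let-7d (edgeR adjusted p = 0.00286), from 47.9, 46.2, 25.8 and 26.8 CPM in controls to 42.4, 40.1, 19.96 and 20.6. With let-7e, Gins4 of the fork helicase fell by 0.29 (edgeR adjusted p = 0.0095) and Tk1, thymidine kinase, by 0.26 (edgeR adjusted p = 0.0125).

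Among 37 further mitotic factors let-7d raised 2 over both series (5.41%, against 6.41% of all genes), Ckap2 and Pttg1. Ckap2, a spindle protein, was at 29.8 and 25.8 CPM in the series 1 controls and 45.8 and 47.0 with let-7d, and at 43.3 and 42.9 in the series 2 controls and 55.7 and 49.7 with let-7d. It rose by 0.50 (edgeR adjusted p = 0.000598), by 0.73 in series 1 and by 0.29 in series 2. Pttg1, securin, which holds back sister separation, rose by 0.40 with let-7d (edgeR adjusted p = 0.00715) and by 0.40 with let-7e (edgeR adjusted p = 0.00934). Its series 1 levels were 14.0 and 11.9 CPM in controls, 19.3 and 19.7 with let-7d and 19.8 and 20.3 with let-7e. In series 2 they were 24.7 and 21.4 CPM in controls, 28.4 and 26.9 with let-7d and 29.8 and 24.6 with let-7e, where let-7e 4 lay between the controls. Of the 37, 34 lay above 0 with let-7d in series 1 (median 0.25), and 7 were called higher (18.9%, against 4.59% of all genes). In series 2, 28 lay below 0 (median -0.10), and 1 was called higher (2.7%, against 3.29% of all genes). Without control 2 the series 1 values were 32 above 0, a median of 0.18 and 2 called higher. Over the 120, the difference of the let-7d responses had a median of -0.19 with 98 below 0, where 47.1% of all genes lay above 0. Of these 120 edgeR called 0, against 0.241% of all genes, and 30 had an unadjusted edgeR p under 0.05, against 13.6%. Within the series, Ndc80 of the kinetochore rose by 0.53 with let-7d in series 1 (edgeR adjusted p = 0.00545) and was at -0.11 in series 2 (edgeR adjusted p = 0.555). Uhrf1, listed among the replication factors because it keeps DNA methylation through S phase, rose by 0.44 with let-7d and by 0.43 with let-7e in series 1 (edgeR adjusted p = 0.00551 and 0.00734). Rb1, the pocket protein that holds E2F factors, also has a let-7 site and rose by 0.34 with let-7e in series 1 (edgeR adjusted p = 0.0183). In series 2, Cdkn2d, a kinase inhibitor, rose by 0.34 with let-7d (edgeR adjusted p = 0.0366) and Rfc5, of the clamp loader, fell by 0.30 (edgeR adjusted p = 0.0457). The 120 share the 12 libraries and control 2 with the 44, so they are no independent replicate of the pattern.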

How the data were processed

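Total RNA of 12 libraries (4 per group) was sequenced on a NovaSeq instrument, per the labels. The values of the table the authors deposited are raw counts, whole numbers for each Ensembl identifier. Per the submitters' processing notes, reads were handled with STAR and the build GRCm38.p6. Not given in the sources used here are the version, the counter, its strand setting and the threshold of the filter on low values, so reads of antisense partners and near copies cannot be told apart. A second deposited table, named RPKM, was not used, because the gene length it implies differs between libraries (median ratio of highest to lowest 69.4).

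Of 15754 identifiers, 15742 were matched to GENCODE M21 symbols. All were tested, since filterByExpr removed 0. EdgeR 4.0.16 (R 4.3.3) was run with TMM scaling and the quasi-likelihood test on all 12 libraries, with terms for group and series (8 residual degrees of freedom) or 1 mean per group and series (6), and Benjamini-Hochberg adjustment over all genes. Calls were made where the two-sided adjusted p was under 0.05. A standard error (SE) is the log2 change divided by the root of F. CPM are scaled by TMM. The script was tested on simulated data. DESeq2 1.42.0, limma-voom (limma 3.58.1), other scaling, a mean CPM of at least 1, single-library omissions, a replicate block and, added after the data were seen, an offset for transcript adenine content were alternatives.

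Same-numbered libraries of different groups deviated together from their group means (correlation 0.803 to 0.857). By these deviations 8 of 12 libraries correlated best with one of their own number. The deviations still hold the difference between series, so this count does not show pairing within a series. After removing group-by-series means the correlations were -0.05 to 0.16. Most of the shared deviation thus went with the series, which was entered as a term, with the replicate block as an alternative.

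The members and gene lists were chosen with earlier results of these data known. Named were called genes (up to 8 per direction with the smallest p), the gene with the smallest p per role, those with the largest difference of response, and up to 6 called genes per comparison among the other cell cycle genes. Foxm1 within series and the difference of response of Bub1b were chosen after their values were seen.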

Additional observations from a re-analysis of the deposited data

Results flagged for a closer look

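The level of Tpx2 in the let-7e group had 1 library far from the others. Let-7e replicate 1 stood at 83.4 CPM, and replicates 2, 3 and 4 at 89.9, 89.4 and 89.1 CPM. The gap of that library to its nearest neighbour was 0.871 of the whole range of the group, above Dixon's 95% critical value of 0.829 for 4 libraries. Among 45 groups of values tested in this way 1 passed. Each group pools 2 libraries of each series, and many of these genes differ in level between the series. The rate of 1 in 20 behind the critical value therefore does not apply, and an outlier within a series can be missed.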

How the results depend on the processing

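The limits are the 2 libraries per group and series, control 2, and the unknown counting of near copies. The count of genes called with let-7d (6) was 0 without the series term, 2 with only the 2 groups compared and 2 to 6 when 1 library was left out; with let-7e (3) it was 0 without the series term and 0 to 3. For let-7d against let-7e (0) the omissions gave 0 to 0. In series 1 the let-7d count (5) was 3 by DESeq2 and 2 to 8 over the omissions, and the let-7e count (1) was 2 with only that series' libraries and 1 to 4. In series 2 the let-7d count (3) was 1 with only that series' libraries, 5 with the replicate block and 0 to 6 over the omissions, and the let-7e count (0) was 1 by DESeq2 and 0 to 1. The difference of the let-7d responses (0 called) gave 1 by DESeq2, 2 with the replicate block and 0 to 5, with 5 (Ccnb1, Bub1, Cenpe, Cenpf and Mki67) without control 1, which leaves control 2 alone; that of let-7e (0) gave 0 to 3. The series difference (30) gave 28 to 34, and 41 with the adenine offset, under which Nusap1 (-0.18) and Ccne2 (-0.29) reversed. The cause was not tested, except that omissions leave fewer samples. The replicate block changed no other count of calls by over 1.5 times. An omission within a series leaves 1 library in an arm, assumed to vary like the others. Over single genes and settings, 69 values lost the call, 9 gained it and 2 reversed. The rest kept their side of the threshold, and a change of direction between 2 fits without a call was counted among them.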
